A study of Mus musculus with 96 samples.

Results

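The comparison set the epidermis of mice in which the circadian clock was rebuilt by K14-Cre alone (EpiRE, epidermis reconstituted) against that of mice with an intact clock (WT). The members were chosen by genotype label: 24 EpiRE and 24 WT libraries, 48 of the 96 in the series, with 4 mice of each genotype at each of 6 times. Times are zeitgeber times (ZT), hours from lights on, spaced 4 h apart in a 12 h light and 12 h dark day. All mice were C57BL/6 males, 8 weeks old. WT mice were Arntl wt/wt with both Cre drivers (K14Cre wt/tg and Syt10-Cre tg/wt). EpiRE mice were Arntl stopFL/stopFL with K14Cre tg/wt and without Syt10-Cre (wt/wt). In the stopFL allele a removable stop cassette blocks Arntl until Cre excises it, so EpiRE mice lack the gene's product in cells where K14-Cre does not act, the brain included. K14-Cre acts in keratin-14-positive stratified epithelia and their appendages, and Syt10-Cre in the suprachiasmatic nucleus, the pacemaker of the hypothalamus. The Syt10-Cre transgene itself was present in WT and absent in EpiRE, which cannot be told apart from the difference in clocks. Each library is poly(A) RNA of back-skin epidermal cells released with dispase and filtered.

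In the mammalian clock, BMAL1 (encoded by Arntl) pairs with CLOCK or NPAS2 and activates the Per, Cry, Rev-erb (Nr1d1, Nr1d2) and PAR bZIP (Dbp, Tef, Hlf) genes. PER and CRY proteins repress BMAL1, and REV-ERB receptors repress Arntl itself, which closes the loop. In epidermis the clock is known for timing DNA replication and division of basal keratinocytes to different parts of the day. Brain, feeding and hormonal signals normally keep the skin clocks of an animal in step.

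Values are RPKM (reads scaled to transcript length and to library depth). Estimated depth was 12.5 to 21.1 M reads (median 17.8) in WT and 12.0 to 19.3 M reads (median 14.7) in EpiRE. Tests covered 12144 genes, those averaging 1 RPKM or more. Krt14, the basal keratinocyte keratin, was abundant in every library, and Syt10 stood at the lowest listed value in all 48. Arntl reads do not check the genotype, because BRE mice, whose brain alone was reconstituted (Syt10-Cre without K14-Cre on stopFL), had an Arntl day-long mean within 0.03 log2 of WT. Nr1d1, a direct BMAL1 target, had a day-long mean of +0.24 log2 against WT in EpiRE and -3.32 log2 in BRE. The EpiRE mouse numbered 3 at ZT16 stood apart from the other 3 of its group in clock genes, with Per2 at -2.72 log2 and Dbp at -1.98 log2 from the group mean. Results that rest on it are given with and without it.

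Promoters of 3 core clock genes show the sequences through which the loop is known to act. They are the 250 bases before the RefSeq start (GRCm38.p6), 5′ to 3′ on the gene's strand, with each E-box (CACGTG, the BMAL1 site) or D-box (TTATGNAA, the PAR bZIP site) in capitals. Ciart, a repressor of BMAL1, is at chr3:95882229-95882478 on the minus strand, Cry1 at chr10:85185055-85185304 on the minus strand and Per3 at chr4:151044666-151044915 on the minus strand.
Ciart: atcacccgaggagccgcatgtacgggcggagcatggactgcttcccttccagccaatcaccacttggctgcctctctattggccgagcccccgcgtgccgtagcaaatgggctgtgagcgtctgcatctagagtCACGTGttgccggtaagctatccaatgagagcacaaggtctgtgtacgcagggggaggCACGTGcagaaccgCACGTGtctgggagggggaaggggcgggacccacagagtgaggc
Cry1: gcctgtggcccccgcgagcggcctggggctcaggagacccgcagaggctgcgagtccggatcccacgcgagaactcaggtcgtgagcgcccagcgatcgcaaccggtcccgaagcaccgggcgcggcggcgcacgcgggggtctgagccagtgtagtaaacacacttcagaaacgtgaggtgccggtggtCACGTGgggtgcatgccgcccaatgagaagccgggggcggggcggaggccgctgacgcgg
Per3: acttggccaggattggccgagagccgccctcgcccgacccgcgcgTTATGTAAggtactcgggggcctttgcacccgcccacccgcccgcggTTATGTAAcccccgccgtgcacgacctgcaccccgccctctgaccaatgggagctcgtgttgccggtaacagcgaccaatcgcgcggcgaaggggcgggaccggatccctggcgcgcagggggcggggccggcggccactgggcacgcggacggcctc
The Ciart window holds 3 E-boxes, the Cry1 window 1 E-box and the Per3 window 2 D-boxes. Searched on both strands, an E-box was found in 6.05% of 27025 promoters of this length and a D-box in 3.23%. Promoters were matched for 9017 of the tested genes, of which 8.88% held an E-box. Among the 752 matched genes whose rhythm was smaller in EpiRE (below), the share was 9.04%, and among the 12 matched clock genes that differed, 3 held one (Ciart, Cry1 and Tef, whose window lies in an annotated exon). The REV-ERB site (TAGGTCA) was in 2.27% of all promoters and in none of those 12. No capitals of one motif overlap another, and a match describes letters only.

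Core clock genes had shallower daily swings in EpiRE epidermis than in WT. Each gene was fitted with a 24 h cosine in each genotype, and its swing is the peak minus the trough of that curve in log2 units. Of the 18 core clock genes tested, 14 differed in rhythm between the genotypes (limma F test of the genotype by time terms, adjusted p below 0.05), each with the smaller swing in EpiRE. Across all tested genes 8.51% differed. The median swing of the 18 genes was 2.45 log2 in WT and 0.82 log2 in EpiRE, and over all tested genes the medians were 0.23 and 0.15. In WT 16 of the 18 were called rhythmic (34.4% of all tested genes), and in EpiRE 7 were (2.87% of all). These 7 were Arntl, Per2, Per3, Cry2, Dbp, Tef and Ciart. Per1, Rora, Nfil3 and Bhlhe40 did not pass the test of the difference, and Bhlhe41 was too low to be tested.

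Arntl (GRCm38 chr7:113207465-113314126, plus strand), the activator that the stop cassette controls, fell in WT from 22.9, 23.3, 27.4 and 21.1 RPKM in the 4 mice at ZT0 to 5.05, 6.26, 4.69 and 5.39 at ZT12. In EpiRE the same times gave 13.8, 18.5, 17.2 and 17.1 RPKM and 9.90, 13.9, 9.78 and 13.3. WT and EpiRE mice did not overlap at either time, with EpiRE lower at the peak and higher at the trough. The fitted swing was 2.31 ± 0.15 (SE) log2 in WT and 0.76 ± 0.15 in EpiRE (adjusted p of the difference 5.03e-05), and the peaks were close, at ZT22.6 and ZT22.0. Npas2, the partner that can replace CLOCK, swung by 2.78 ± 0.18 log2 in WT and 1.14 ± 0.29 in EpiRE (adjusted p = 0.00368). Clock itself swung by 0.44 log2 in WT and 0.12 in EpiRE (adjusted p = 0.00227), a difference that did not pass after rescaling or without mice numbered 1 or 2.

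Nr1d1 (chr11:98767932-98775333, minus strand), the REV-ERB alpha receptor that represses Arntl, had the smallest adjusted p of the clock genes. At ZT8 it stood at 170, 130, 131 and 142 RPKM in WT and at 63.2, 43.7, 73.2 and 112 in EpiRE. At ZT20 the WT mice had 9.27, 8.36, 8.55 and 8.17 RPKM and the EpiRE mice 57.8, 25.4, 26.9 and 19.3. The genotypes did not overlap at either time, and the lowest EpiRE mouse at the trough was more than 2-fold above the highest WT mouse. The swing was 4.03 ± 0.14 log2 in WT and 1.01 ± 0.31 in EpiRE (adjusted p = 9.92e-07). Its paralogue Nr1d2 swung by 2.58 log2 in WT and 0.79 in EpiRE (adjusted p = 8.10e-05).

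Among the repressors of BMAL1, Per2 (chr1:91415982-91459324, minus strand) had the widest swing of the 18 genes in both genotypes, 6.14 ± 0.34 log2 in WT and 2.15 ± 0.47 in EpiRE (adjusted p = 3.81e-06). At ZT0 it stood at 0.253, 0.558, 0.591 and 0.380 RPKM in WT and at 6.4, 2.43, 3.63 and 2.06 in EpiRE. At ZT12 the values were 26.5, 24.1, 20.7 and 27.7 in WT and 15.0, 10.2, 12.2 and 11.2 in EpiRE. Every EpiRE mouse lay above the WT mice at ZT0 and below them at ZT12, and the fitted peak came at ZT9.9 in place of ZT13.1, 3.23 ± 0.86 h earlier. Per3 swung by 3.35 log2 in WT and 1.48 in EpiRE (adjusted p = 0.000164). Cry2 swung by 1.46 log2 in WT and 0.54 in EpiRE (adjusted p = 2.70e-05). Cry1, the repressor with the E-box shown above, was nearly level in EpiRE. Its swing was 2.62 ± 0.18 log2 in WT and 0.40 ± 0.21 in EpiRE (adjusted p = 6.62e-06), and it was not called rhythmic in EpiRE (adjusted p = 0.461). At ZT4 Cry1 stood at 4.34, 2.54, 4.58 and 3.98 RPKM in WT and 14.7, 10.3, 9.40 and 10.8 in EpiRE, while at ZT16 it stood at 22.2, 22.2, 19.5 and 22.2 in WT and 12.2, 12.6, 11.7 and 12.5 in EpiRE.

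**Figure D1:**
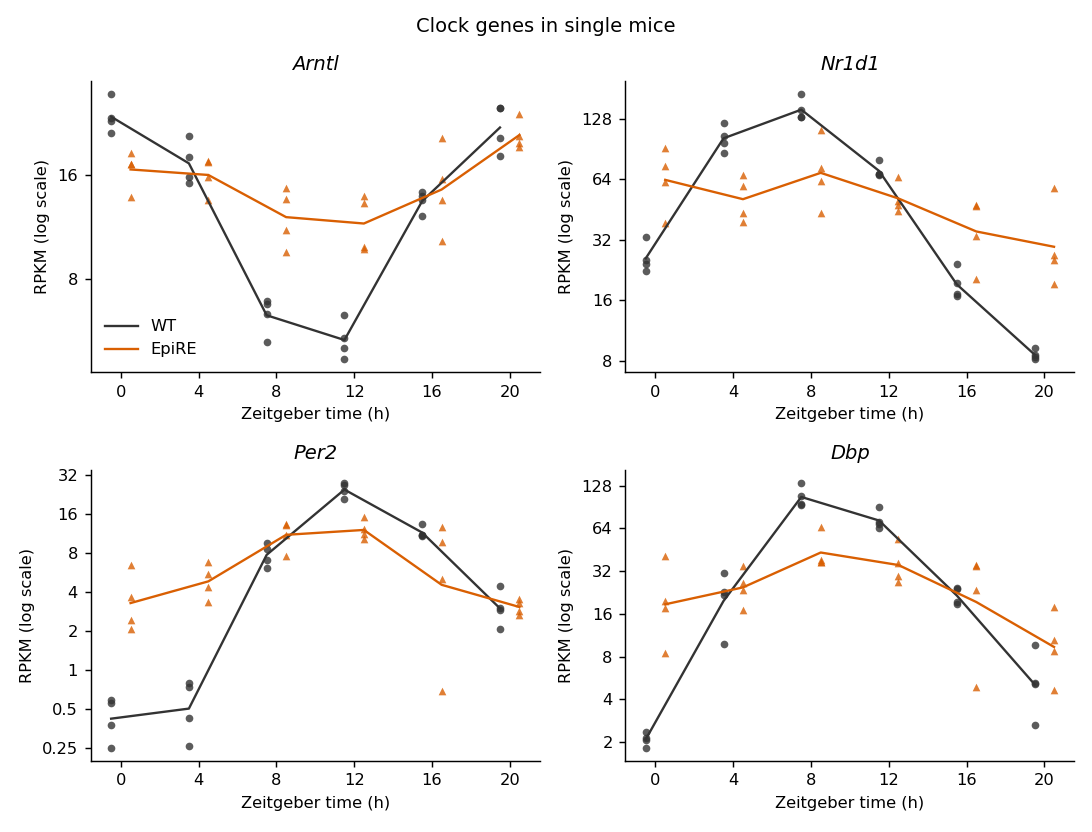
RPKM (log axis) of Arntl, Nr1d1, Per2 and Dbp against zeitgeber time in hours, with 4 mice per genotype and time; black circles are WT mice, orange triangles EpiRE mice, and lines join the geometric means. In EpiRE each gene spans a narrower range than in WT, and the ZT16 mouse with Per2 at 0.687 RPKM is the one that stood apart.

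The PAR bZIP output factors followed the same course. Dbp, the activator of D-box genes, stood at 2.35, 2.15, 1.83 and 2.07 RPKM at ZT0 in WT and at 40.6, 8.53, 19.8 and 17.7 in EpiRE. At ZT8 it stood at 133, 107, 93.6 and 95.5 in WT and at 37.1, 38.5, 37.3 and 65.4 in EpiRE. The genotypes did not overlap at these times, in opposite directions. The swing was 5.49 ± 0.34 log2 in WT and 1.92 ± 0.44 in EpiRE (adjusted p = 0.000138). Tef swung by 2.91 log2 in WT and 1.08 in EpiRE (adjusted p = 5.03e-05), and Hlf by 0.90 and 0.21 (adjusted p = 0.00269). Ciart, with 3 E-boxes in the window printed above, swung by 3.96 ± 0.27 log2 in WT and 1.25 ± 0.28 in EpiRE (adjusted p = 0.0001). Nfil3, the repressor at D-boxes, was the exception in sign: its swing was 0.51 ± 0.49 log2 in WT and 1.17 ± 0.42 in EpiRE, and neither rhythm nor their difference (adjusted p = 0.746) passed the test.

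Taken time by time, a clock gene is counted where all 4 EpiRE mice lay above, or all below, the 4 WT mice and the means differed by at least 1.5-fold. At ZT0 9 of the 18 were higher in EpiRE (0.280% of all tested genes were) and 1, Npas2, was lower (0.914% of all). The 9 were Per2, Per3, Cry2, Nr1d1, Nr1d2, Dbp, Tef, Hlf and Ciart, genes of the Per, Cry, Rev-erb and PAR bZIP families with Ciart. At ZT4 the higher genes included Per2, Per3, Cry1 and Tef (0.222% of all tested genes), and Nr1d1 was lower (0.338%). At ZT8 Arntl, Npas2 and Cry1 were higher (1.13% of all tested genes) and Nr1d1, Dbp, Bhlhe40 and Ciart lower (0.338%). At ZT12 Arntl was higher (0.494%) and Per1, Per2, Per3, Nr1d2, Dbp and Ciart were lower (0.387%). At ZT16 Per1 was higher (0.535%), the reverse of ZT12, and Cry1 was among those lower (0.395%). At ZT20 Nr1d1 and Nr1d2 were higher (0.165%) and none was lower. Day-long means moved little beside these swings. The median difference of the 18 genes was 0.12 log2, none was 1.5-fold apart with 1 sign at all 6 times, and the widest was Per2 at 0.73 ± 0.20 log2 higher in EpiRE.

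The authors' deposited table of JTK q-values, a rank test of rhythm, called none of the 18 clock genes in EpiRE at q below 0.05, with the lowest at 0.0633 for Per2. For the tested genes as a whole that table called 2521 in WT and 19 in EpiRE. The 7 clock genes called rhythmic in EpiRE by the cosine fit were 2 with time as 6 separate levels and 0 with a second, 12 h, cosine. They were 4 without the EpiRE mouse numbered 2 or 4 at ZT0, 1 at ZT4, 2 at ZT8, or 1, 2 or 3 at ZT12, and 9 without number 1 at ZT0. Without all mice of replicate number 1, 2 or 4 none was called, and without number 3 there were 5. The 14 differences stayed at 14 without any single library.

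Clock genes differed more between EpiRE mice of the same time than between WT mice. The spread of a gene is the SD of log2 values around the mean of each time point. For the 18 clock genes its median was 0.23 log2 in WT and 0.44 in EpiRE, it was larger in EpiRE for 15 of 18, and the median ratio was 1.48. Over all tested genes the median ratio was 0.954. Without the ZT16 mouse that stood apart the clock ratio was 1.28 and 15 of 18 were still larger. Nr1d1 had a ratio of 2.72 and Clock one of 2.11. The time of day accounted for a median of 95.3% of the variance of the clock genes in WT and 51.1% in EpiRE, against 41.9% and 29.6% over all tested genes. This share is not corrected for the number of time points, so part of it arises without any rhythm.

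Deviations of single mice from their time point were correlated between clock genes in EpiRE. A mouse with more Arntl than others of its time had less Nr1d1 (Pearson r = -0.735, Spearman rho = -0.733, permutation p = 0.00017 and 0.00031, 24 mice) and less Dbp (r = -0.808, rho = -0.800, permutation p = 1e-05 for each, the smallest that the permutations can give). Per3 and Dbp, activated by the same factors, deviated together (r = 0.920, rho = 0.838, permutation p = 1e-05 and 0.00014). The adjusted p over the 8 relations planned were 0.00034, 4e-05 and 4e-05 for r, and without the 2 mice farthest from the median r was -0.688, -0.757 and 0.801. Without the ZT16 mouse that stood apart they were -0.668, -0.725 and 0.848.

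In WT the same pairs gave r = -0.450 for Arntl with Nr1d1 (rho = -0.498, permutation p = 0.034 and 0.022, adjusted 0.040), -0.745 for Arntl with Dbp (rho = -0.764, permutation p = 9e-05 and 0.00014, adjusted 0.00024) and 0.440 for Per3 with Dbp (rho = 0.512, permutation p = 0.035 and 0.025, adjusted 0.040). Without the 2 mice farthest from the median these became -0.316, -0.664 and 0.330, so the first and the last rested on those mice. With deviations taken from the cosine in place of time-point means, Arntl with Nr1d1 gave 0.0608 and Arntl with Dbp -0.0665 in WT (permutation p = 0.98 and 0.93), and -0.774 and -0.823 in EpiRE (permutation p = 1e-05 for each). Npas2 with Nr1d1 gave r = -0.486 in EpiRE (rho = -0.489, permutation p = 0.030 and 0.028, adjusted 0.040), which fell to -0.282 without the 2 farthest mice and rested on them, and -0.430 in WT (rho = -0.289, permutation p = 0.097 and 0.24). Whether the correlations differ between the genotypes was not tested. In the plot of deviations the EpiRE mice range more widely on both axes than the WT mice.

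**Figure D2:**
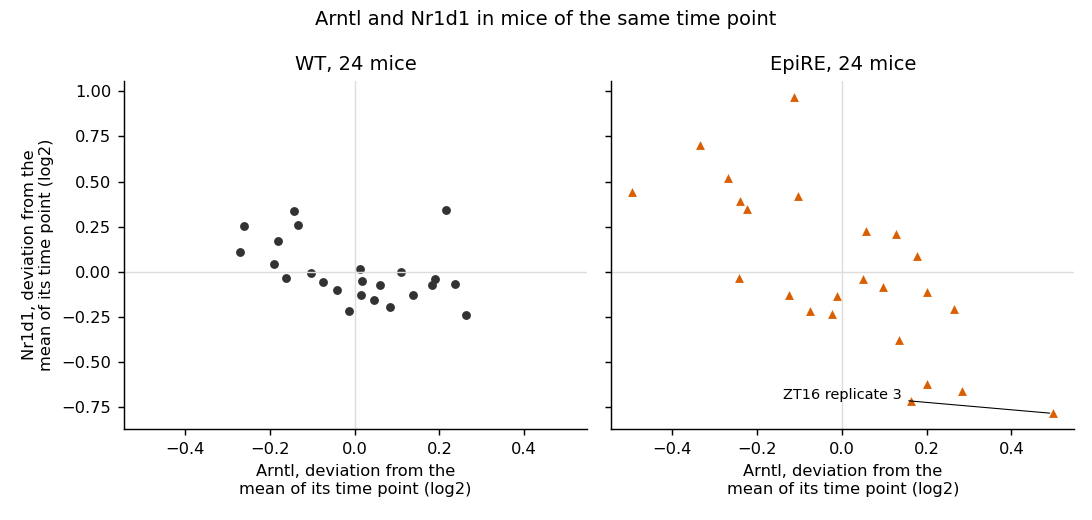
Deviation of Nr1d1 (vertical) against that of Arntl (horizontal) from the mean of the mouse's own time point, both in log2 units, with 1 point per mouse, 24 WT on the left and 24 EpiRE on the right. The points slope downwards, with r = -0.450 in WT and r = -0.735 in EpiRE; the labelled mouse is ZT16 replicate 3.

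Genes of G2 phase and mitosis had no daily rhythm that passed the test in EpiRE. Of the 32 tested, 31 differed in rhythm, all with the smaller swing in EpiRE, and the remaining gene was Ttk, a spindle checkpoint kinase (adjusted p = 0.113). All 32 were rhythmic in WT with peaks between ZT20.6 and ZT0.5, and none was called in EpiRE by limma (none at an unadjusted p below 0.05 either, and Top2a had q = 1 in the authors' deposited table). Of all tested genes, 34.4% were called rhythmic in WT and 2.87% in EpiRE, and 8.51% differed. The median swing of the 32 genes was 1.55 log2 in WT and 0.21 in EpiRE. Day-long means stayed close, with a median difference of 0.12 log2.

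Top2a (chr11:98992943-99024189, minus strand), the topoisomerase that untangles chromosomes before division, stood at 33.6, 31.4, 31.7 and 26.1 RPKM at ZT0 in WT and at 7.46, 8.11, 8.12 and 10.3 at ZT8. In EpiRE the values were 10.4, 27.5, 24.2 and 15.3 at ZT0 and 17.7, 18.9, 24.2 and 18.8 at ZT8. All 4 EpiRE mice were above the WT mice at ZT8, while at ZT0 they overlapped with them. The swing was 1.72 ± 0.18 log2 in WT and 0.17 ± 0.25 in EpiRE (adjusted p = 0.000564). Plk1, the polo kinase of mitotic entry, swung by 2.00 log2 in WT and 0.28 in EpiRE (adjusted p = 0.000908). Cdk1, the mitotic kinase, swung by 1.59 and 0.20 (adjusted p = 0.00313), and Ccnb1, its cyclin, by 1.66 and 0.32 (adjusted p = 0.0143).

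At ZT8, the low point of WT, 27 of the 32 genes were higher in EpiRE without overlap (1.13% of all tested genes), with a list median of 0.74 log2 above WT. At ZT0 the median was -0.78 log2 against WT, and Bub1 and Incenp were lower without overlap (0.914% of all). After each library was rescaled by its median ratio to the mean library, the ZT8 count was 23. T-cell markers were also above WT at ZT8, by a median of 1.22 log2 over 9 genes, with Cd3e alone not overlapping, and their part in the result was not tested. The spread between mice of the same time was larger in EpiRE for 31 of 32 genes, with a median ratio of 1.71, and time of day accounted for 85.5% of the variance in WT and 8.11% in EpiRE (medians). Top2a and Ube2c, a ubiquitin carrier of mitotic exit, deviated together within time points in both genotypes (r = 0.823 and rho = 0.851 in WT, r = 0.942 and rho = 0.927 in EpiRE, permutation p for r of 5e-05 and 1e-05, adjusted over all 18 relations 0.00018 and 4.5e-05). Without the 2 farthest mice r was 0.713 and 0.927. This pair, like the pairs of Fkbp5 and of Lhx2 below, was chosen after seeing the data. The count of 31 was the same without any single library, and 8, 14, 9 and 32 without all mice of replicate number 1, 2, 3 and 4.

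DNA replication genes had a daily rhythm in EpiRE that peaked earlier than in WT. Of 37 S-phase genes tested, 35 were rhythmic in WT, 24 in EpiRE and 23 in both, and all 23 peaked earlier in EpiRE, by a median of 2.11 h. Of all 237 genes rhythmic in both genotypes, 207 peaked earlier, by a median of 2.23 h. The median peak of called genes was ZT14.9 in WT and ZT12.7 in EpiRE, where the 24 peaks lay between ZT11.2 and ZT13.3. The median swing was 0.88 log2 in WT and 0.66 in EpiRE. Only 5 genes passed the test of the difference. They were Ccne2, a cyclin of S-phase entry (adjusted p = 0.00147), Rrm2, a ribonucleotide reductase subunit (0.00244), Tk1, thymidine kinase (0.012), the DNA polymerase alpha gene Pola1 (0.0218) and the primase gene Prim2 (0.0399). Ccne2 peaked at ZT15.2 in WT and ZT11.2 in EpiRE, and Rrm2 at ZT18.9 and ZT13.5.

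Mcm2, a subunit of the replicative helicase, stood at 5.88, 10.5, 7.03 and 6.78 RPKM at ZT4 and 16.9, 19.8, 14.7 and 21 at ZT12 in WT. In EpiRE it stood at 4.94, 7.56, 11.0 and 12.3 at ZT4 and 21.4, 15.2, 17.1 and 11.6 at ZT12. Its swing was 1.33 ± 0.17 log2 in WT and 0.99 ± 0.20 in EpiRE, which did not differ by the test (adjusted p = 0.451). At ZT20, 11 of the 37 genes were lower in EpiRE without overlap (1.05% of all tested genes), among them Mcm3, Mcm5, Cdc6 and Rrm2, and none was higher without overlap at any time. The list median at ZT20 was -0.50 log2 against WT. The 24 EpiRE calls depended on the libraries used. They ranged from 16 to 31 without single libraries, and were 0 without replicate number 1 or 2, 16 without 3 and 9 without 4. Time as separate levels gave 5, and the added 12 h cosine 6.

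**Figure D3:**
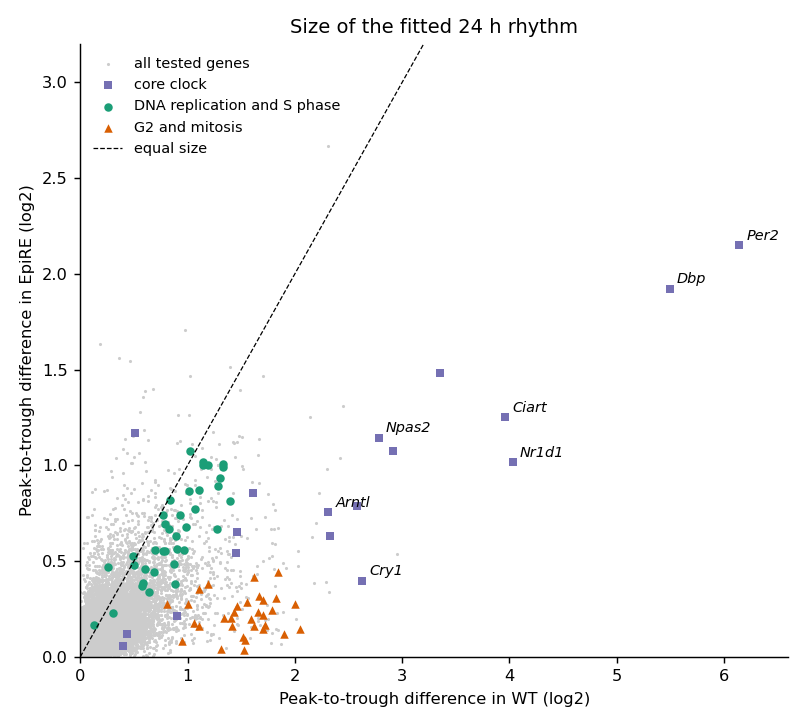
Fitted peak-to-trough difference (log2) in EpiRE against that in WT for the 12144 tested genes, on axes of different scale with a dashed line of equal size; squares are core clock genes, circles S-phase genes and triangles G2 and mitosis genes. Clock genes other than Nfil3 lie below the line, mitotic genes lie along the bottom at a median of 0.21 log2 in EpiRE, and S-phase genes, at a median of 0.66, lie nearer the line.

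Of the G1 regulators, 13 tested, Ccnd2 and Ccnd1 (the D cyclins that open the cell cycle) had smaller swings in EpiRE and Rbl1, a pocket protein, a larger one. Ccnd2 stood at 43.8, 47.4, 65.4 and 39.9 RPKM at ZT0 in WT and at 130, 83.6, 88.2 and 80.1 in EpiRE, with no overlap. It swung by 1.59 ± 0.16 log2 with a peak at ZT10.1 in WT and by 0.72 ± 0.16 with a peak at ZT7.1 in EpiRE (adjusted p = 0.0028). Ccnd1 swung by 1.19 and 0.49 log2 (adjusted p = 0.0272) and Rbl1 by 0.36 and 0.43 with peaks at ZT17.8 and ZT13.0 (adjusted p = 0.0394).

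**Figure D4:**
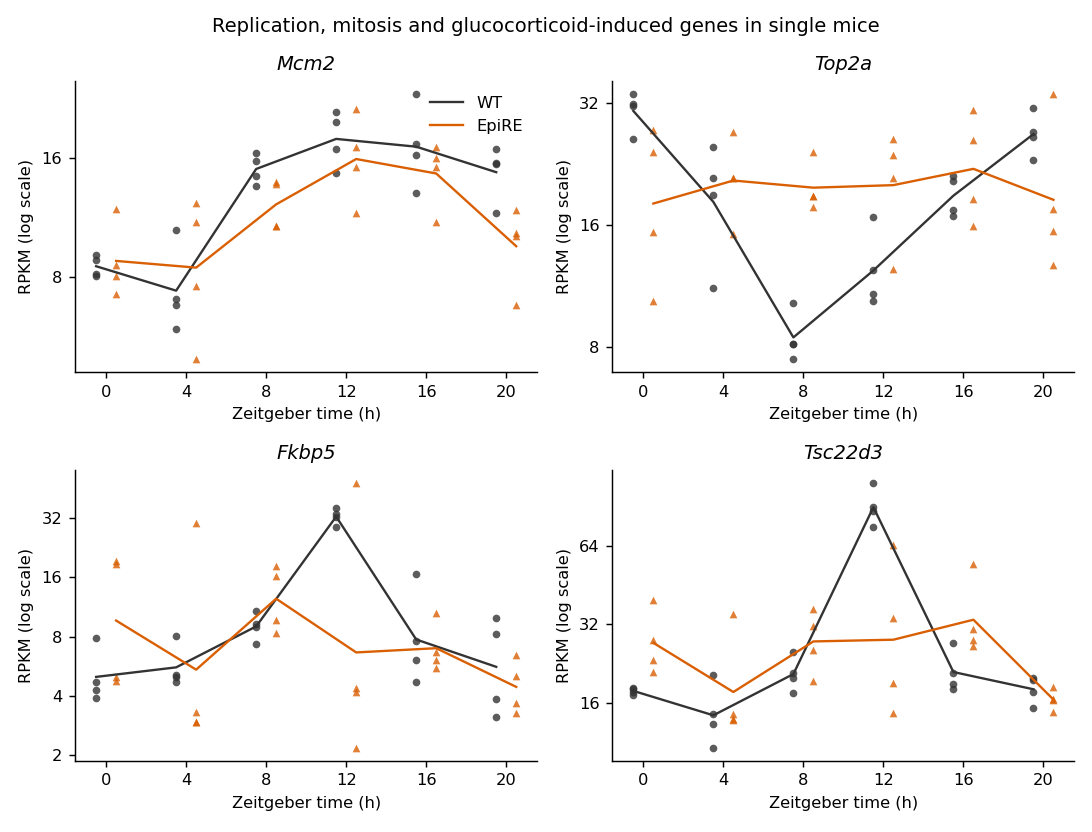
RPKM (log axis) of Mcm2, Top2a, Fkbp5 and Tsc22d3 against zeitgeber time in hours, 4 mice per genotype and time, with WT as black circles, EpiRE as orange triangles and lines through the geometric means. Mcm2 follows a like course in both genotypes, Top2a is level in EpiRE with scattered mice, and at ZT12 1 EpiRE mouse, with Fkbp5 at 48.5 RPKM, is above the WT mice for Fkbp5, while all 4 EpiRE mice are below them for Tsc22d3.

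The glucocorticoid-induced genes Fkbp5 and Tsc22d3 were high at ZT12 in all 4 WT mice, while EpiRE mice of that time ranged widely. Fkbp5, a chaperone that responds to corticosterone, stood at 33.5, 29.0, 36.2 and 32.3 RPKM at ZT12 in WT, and between 3.13 and 16.6 at the other times. At ZT12 the EpiRE mice had 4.41, 2.18, 4.19 and 48.5 RPKM, and at ZT4 they had 30.3, 2.96, 2.96 and 3.29. The 2 highest EpiRE mice were of different times, and the other mice of those times were low. Its within-time SD was 0.53 log2 in WT and 1.19 in EpiRE. Tsc22d3, the glucocorticoid-induced leucine zipper, stood at 75.2, 89.6, 111 and 86.8 RPKM at ZT12 in WT and at 19.0, 14.6, 33.9 and 64.4 in EpiRE. The tests of the rhythm difference did not pass for Fkbp5 (2.2 ± 0.41 against 0.70 ± 0.67 log2, adjusted p = 0.201) or Tsc22d3 (1.82 ± 0.38 against 0.59 ± 0.35, adjusted p = 0.243). Of the 13 genes of this list, 6 were rhythmic in WT (34.4% of all tested genes were). None was called in EpiRE (2.87% of all), with 2 at an unadjusted p below 0.05, so few calls were to be had there. Only Klf9, a glucocorticoid- and clock-responsive factor, differed in rhythm (adjusted p = 0.0281), near the share of all tested genes (8.51%). At ZT12 Tsc22d3, Klf9 and Errfi1 were lower in EpiRE without overlap (0.387% of all tested genes), and the list median was -0.80 log2. At ZT8 Mt2 and Nfkbia were lower (0.338%, list median -0.45 log2). Other times went the other way. At ZT0 Tsc22d3, Zbtb16 and Glul were higher without overlap (0.280%, list median 0.13 log2), and at ZT16 Klf9 was higher (0.535%, list median 0.37 log2). Fkbp5 and Tsc22d3 deviated together in EpiRE (r = 0.693, rho = 0.427, permutation p = 0.020 and 0.087, adjusted 0.046 over all 18 relations), which rested on 2 mice, since r was 0.131 without the ZT12 and ZT4 mice named above.

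Over all genes, 1034 of 12144 differed in rhythm, 939 with the larger swing in WT (7.73%) and 95 in EpiRE (0.782%). The count was 274, 201, 145 and 1376 without all mice of replicate number 1, 2, 3 and 4, and 779 to 1421 without single libraries. Of the 939, 862 were not called rhythmic in EpiRE. Few genes were called there at all, 2.87% of all tested genes and 5.68% of those rhythmic in WT. In WT 64.1% of the 939 peaked between ZT18 and ZT24, beside 47.8% of all genes rhythmic in WT. Sod2, the mitochondrial superoxide dismutase, was measured tightly. In WT it rose from 12.1, 11.8, 11.4 and 11.9 RPKM at ZT0 to 16.3, 16, 16.3 and 16.3 at ZT16, while in EpiRE those times gave 14.9, 12.9, 12.7 and 12.9 and then 14.4, 14.4, 12.2 and 15.9. Its swing was 0.55 ± 0.03 log2 in WT and 0.20 ± 0.05 in EpiRE (adjusted p = 9.35e-05), with peaks at ZT14.0 and ZT11.2. Trappc9, a vesicle tethering subunit, swung by 0.47 ± 0.04 log2 in WT and 0.01 ± 0.06 in EpiRE (adjusted p = 0.000179), where its 24 mice lay between 4.57 and 5.98 RPKM. Ptpa, an activator of the PP2A phosphatase, had the smallest adjusted p outside the clock (0.39 and 0.05 log2, adjusted p = 1.74e-05). The others with the smallest p were Leo1 (a PAF1 complex subunit), Pdxk (pyridoxal kinase), Rgs3, Ugt1a6a (a glucuronosyltransferase), Naa60, Aaas, Dpy19l1, Rasa3 and Nuf2 (a kinetochore subunit). Ugt1a6a shares exons with the other genes of its cluster, so its count is uncertain.

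Most of the 95 genes with the larger swing in EpiRE had their fitted peak at another time of day. Their median swing was 0.20 log2 in WT and 0.31 in EpiRE, and 77 had peaks at least 6 h apart. The test responds to a moved peak as well as to a changed swing. With swings this close, peaks far apart follow in part from how the genes were chosen. In WT 57.9% peaked between ZT18 and ZT24, and in EpiRE 3.16% did. All genes called rhythmic showed a like contrast, with 47.8% in that span in WT and 5.73% in EpiRE. Of the 95 genes 32 were called rhythmic in EpiRE (2.87% of all tested genes were) and 25 in WT (34.4% of all). Most of the peak times thus come from curves that were not called. Abhd13, a hydrolase-like gene, swung by 0.21 log2 with a peak at ZT19.9 in WT and by 0.28 with a peak at ZT5.0 in EpiRE (adjusted p = 0.000908). Chd3, a NuRD remodeller subunit, swung by 0.23 log2 (ZT22.8) and 0.35 (ZT13.7, adjusted p = 0.0037). Tspan5, a tetraspanin, swung by 0.23 log2 (ZT8.0) and 0.31 (ZT3.0, adjusted p = 0.0109). For Fbxl14, Klhl23, Mgat2, Purb, Sorl1 and Vhl the genotype with the larger swing changed without the mice of at least 1 replicate number. Cdca4, Lsm2 and Rad9b complete the 12 with the smallest p.

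In all, 4174 genes were rhythmic in WT and 349 in EpiRE. The 237 called in both were 67.9% of the EpiRE list and 5.68% of the WT list. For these the quartiles of the advance were 1.2 and 3.66 h, and the swing in EpiRE was a median 80.5% of that in WT. Their median standard error of a peak difference was 1.02 h. The EpiRE list grew to 550 genes, and the shared list to 367 with a median advance of 1.84 h, without the ZT16 mouse that stood apart. It shrank to 190 without the EpiRE mouse numbered 1 at ZT4, 225 without 4 at ZT0, 227 without 1 at ZT12, and 211 and 214 without 1 and 4 at ZT16, and to 6, 8 and 69 without all mice numbered 1, 2 and 4. In WT 47.8% of the rhythmic genes peaked between ZT18 and ZT24, and in EpiRE 52.4% peaked between ZT12 and ZT18. Outside the clock, the genes most firmly rhythmic in both were Cgrrf1, Wdr90, Mb21d1 (the DNA sensor cGAS), Chaf1b (a chromatin assembly factor of replication), Sypl, Cdca7l, Cdk2 (the S-phase kinase) and Ndfip1. Cgrrf1 peaked at ZT12.3 in WT and ZT9.8 in EpiRE (adjusted p of the difference 0.000908), Cdk2 at ZT13.2 and ZT12.0 (0.325) and Ndfip1, a ubiquitin ligase adaptor, at ZT4.1 in both (0.916).

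Metabolic and stress groups are read against the 8.51% of all tested genes that differed in rhythm. Rhythm itself was called for 34.4% of all tested genes in WT and 2.87% in EpiRE, so a short list without a call in EpiRE is near that share. Of 32 oxidative phosphorylation genes, 15 were rhythmic in WT, none in EpiRE, and 3 differed (Atp5b, Cyc1 and Uqcrq), none after rescaling the libraries. Of 18 glycolytic genes only Ldha, lactate dehydrogenase, differed, with a swing of 0.46 log2 in WT and 0.04 in EpiRE (adjusted p = 0.0143). By limma no gene differed among 22 of cholesterol synthesis (2 at an unadjusted p below 0.05), 13 clock kinases and ubiquitin ligases (2), 20 ribosomal proteins (0), 18 immediate-early genes (1), 10 interferon genes (0), 3 cold-inducible genes (2) and 27 of keratinocyte differentiation (1). In fatty acid synthesis Acaca differed (1 of 12), in the antioxidant list Sod2, Ugt1a6a and Taldo1 (3 of 24), in the fasting list Ucp2 (1 of 19), and of 15 clock-controlled output genes shared by tissues, 14 tested, Leo1 alone. Of 18 excision repair genes Rev1 and Polh, both translesion polymerase genes, differed. Rev1 swung by 0.78 log2 in WT and 0.31 in EpiRE (adjusted p = 0.000455). Of 20 heat shock genes 5 differed, all chaperones or their partners with smaller swings in EpiRE (Fkbp4, Hsp90b1, Hspa4, Hspe1 and Hspd1), and 2 did after rescaling. Without all mice of replicate number 1, 2 or 3 none of the 20 differed, and without number 4 there were 8.

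Among skin chemokines and alarmins 3 of 9 differed. Cx3cl1, the fractalkine ligand, swung by 1.06 ± 0.06 log2 with a peak at ZT12.8 in WT and 0.38 ± 0.11 at ZT10.6 in EpiRE (adjusted p = 0.000349). Cxcl14, an abundant keratinocyte chemokine, swung by 1.35 log2 at ZT0.2 in WT and 0.62 at ZT22.5 in EpiRE (adjusted p = 0.0164). Il33, a nuclear alarmin, swung by 1.09 and 0.37 log2 (adjusted p = 0.0385). In the basal keratinocyte list Dst, the hemidesmosome linker, differed (1 of 15, adjusted p = 0.0306), and in the barrier lipid list Aloxe3, an epidermal lipoxygenase (1 of 18, adjusted p = 0.0182).

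Day-long mean levels were close to WT for nearly every gene. The tables of the 2 genotypes were normalized separately, so genotype and table cannot be told apart, the median log2 difference (0.005) was taken out, and levels carry no p-value. Over the 12144 genes the differences had an SD of 0.12 log2, and 96.3% lay within 1.2-fold. A gene is counted as higher or lower where the means over the day differed by at least 1.5-fold with the same sign at all 6 times. By that rule 7 genes were higher in EpiRE (0.0576%) and 45 lower (0.371%). Of these 52, 9 had at least 5 RPKM in the genotype where they were higher. Small shifts ran through some lists. All 18 immediate-early genes lay below WT (median -0.13 log2, range -0.36 to -0.03), as did 17 of 18 glycolytic genes (median -0.12) and 35 of 37 S-phase genes (median -0.09), while 31 of 32 mitotic genes lay above (median 0.12), beside 6072 of all 12144 genes below. The value the tables list for genes without reads was itself 0.13 log2 higher in EpiRE, and with that offset in place of the median ratio the count was 1 higher and 86 lower. All genes then had a median of -0.13 log2, the mitotic and clock lists had a median of -0.01 each with 15 of 32 and 9 of 18 genes above WT, and the other 3 lists stayed below.

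Pyy, the gene of the gut hormone peptide YY, stood farthest above WT. Its 24 WT mice lay between 0.643 and 10.7 RPKM (median 2.90), and at ZT4 they had 4.23, 0.643, 1.87 and 4.45 against 14.6, 13.2, 14.7 and 15.0 in EpiRE. At ZT12 the genotypes overlapped, with 8.79, 10.7, 3.70 and 3.61 RPKM in WT and 6.81, 5.65, 7.08 and 5.22 in EpiRE, a difference of geometric means of 0.04 log2. The day-long difference was 1.79 ± 0.20 (SE) log2, or 3.46-fold. It was not counted as higher after rescaling, with the offset of the lowest listed values, or without mice numbered 3 or 4. Its rhythm differed as well (adjusted p = 0.00335), with the peak at ZT9.5 in WT and ZT0.8 in EpiRE. The geometric means over the day were 2.85 RPKM in WT and 9.87 in EpiRE, beside 7.94 in RERE (reconstituted in brain and epidermis) and 6.89 in BRE. The 3 stopFL groups share the WT mice as their control. Nkd2, a Wnt antagonist, was 0.61 ± 0.16 log2 higher.

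Genes lower in EpiRE included genes of the hair follicle. Lhx2, a transcription factor of hair follicle stem cells, stood at 7.05, 18, 6.6 and 14 RPKM at ZT0 in WT and at 3.10, 3.13, 2.62 and 2.71 in EpiRE, a group without overlap. At ZT8 WT had 1.46, 10.6, 6.42 and 5.63 RPKM and EpiRE 1.87, 2.57, 2.77 and 2.75, which overlapped through 1 WT mouse. Over the day the difference was -1.12 ± 0.22 log2. It was not counted as lower without mice numbered 1 or 4. Its day-long geometric mean was 8.11 RPKM in WT, 3.75 in EpiRE, 3.79 in RERE and 3.42 in BRE. Gli1, the hedgehog effector of the upper follicle, differed by -1.19 ± 0.24 log2, and its deviations followed those of Lhx2 in WT (r = 0.961, rho = 0.909, permutation p = 1e-05). Without the 2 farthest mice r was 0.940. In EpiRE that relation was r = 0.434 (rho = 0.389, permutation p = 0.20 and 0.12). The other genes lower at 5 RPKM or more were Sprr4 (a cornified envelope precursor, -0.78 log2), Slc7a2 (an arginine transporter, -0.77), Vegfa (an angiogenic factor, -0.76), Cers4 (a ceramide synthase, -0.66), Col4a1 (basement membrane collagen, -0.65) and Pnpla3 (a lipase, -0.63). Vegfa differed by -0.76 ± 0.11 (SE) log2, with 7.16 RPKM in WT, 4.23 in EpiRE, 4.09 in RERE and 6.4 in BRE. Its mice overlapped over the day, at 4.62 to 12.4 RPKM in WT and 2.73 to 8.22 in EpiRE. Pnpla3 stood at 12.6 RPKM in WT, 8.22 in EpiRE, 14.1 in RERE and 14.7 in BRE.

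**Figure D5:**
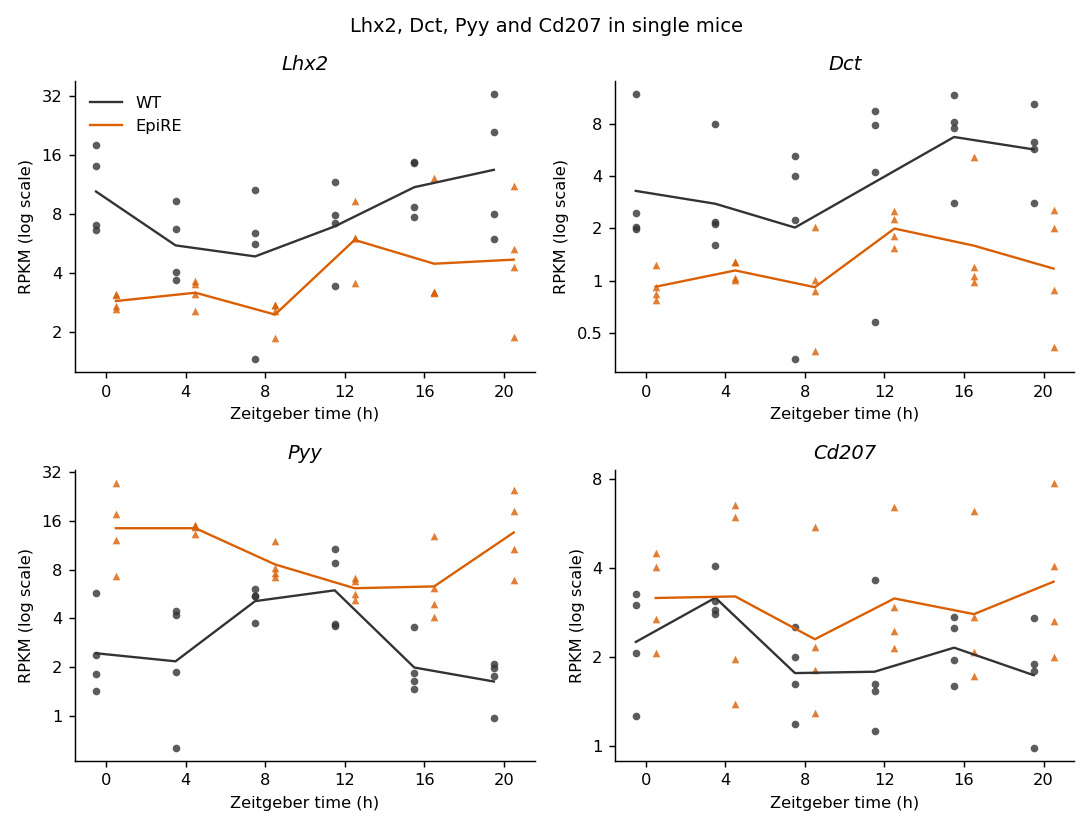
RPKM (log axis) of Lhx2, Dct, Pyy and Cd207 against zeitgeber time in hours, 4 mice per genotype and time, with WT as black circles, EpiRE as orange triangles and lines through the geometric means. Lhx2 and Dct are lower in EpiRE at each time by their geometric means, with mice overlapping at some times, Pyy is apart at ZT4 and not at ZT12, and Cd207 (2.09 RPKM in WT, 3.00 in EpiRE) overlaps throughout.

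Marker lists of the cell types in such an extract moved with these levels. Of 12 hair follicle stem and upper follicle genes, 11 were below WT, with a median of -0.32 log2, and 3 were counted as lower (Lhx2, Gli1 and Krt75); their summed level ranged from 194 to 815 RPKM in WT (median 484) and from 206 to 754 in EpiRE (median 317). Of 4 melanocyte genes tested, Dct differed by -1.58 ± 0.32 log2 (3.71 RPKM in WT, 1.24 in EpiRE), while Tyr, the defining tyrosinase, differed by 0.05 log2. The summed melanocyte level was 8.38 to 33.4 RPKM in WT and 8.98 to 18.3 in EpiRE. Of 5 sebaceous genes 4 were below WT and Elovl3 was counted as lower, and the 3 fibroblast genes tested were below WT with a median of -0.35 log2. All 11 Langerhans and dendritic cell genes were above WT by a median of 0.36 log2, none by 1.5-fold, with a summed level of 114 to 207 RPKM in WT and 135 to 245 in EpiRE. T-cell genes were above WT for 8 of 9, by a median of 0.27 log2. Their sum went the other way, at 35.5 to 96.1 RPKM in WT (median 68.9) and 41.6 to 87.4 in EpiRE (median 65.2). Thy1, the largest part of that sum, had a median of 40.4 RPKM in WT and 36.1 in EpiRE. Hair shaft genes summed to 49.9 to 94.3 RPKM in WT and 55.5 to 100 in EpiRE, muscle genes to 32.4 to 50.9 and 32.5 to 47.9, and blood genes to 7.61 to 192 and 13.2 to 155. The hair shaft sum was mostly Krt25, with a median of 46.2 RPKM in WT and 56.6 in EpiRE. Of the 4 hair shaft genes tested, 3 were below WT (median -0.18 log2), and Hoxc13 was counted as lower. Krt79, Thy1 and Acta1 likewise led the follicle, T-cell and muscle sums (medians of 341, 40.4 and 36.1 RPKM in WT). The endothelial marker Cdh5 and the adipocyte marker Adipoq stood at or near the lowest listed value. In such bulk RNA fewer cells of a type and less RNA per cell cannot be told apart, and the part of these cells in the differences was not tested.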

How the data were processed

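Epidermal poly(A) RNA of 24 EpiRE and 24 WT mice was compared, 4 mice per genotype and time. Per the submitters' processing notes the tools included Trimmomatic 0.36, HISAT2 2.2.1, SAMtools 1.3.1, featureCounts 1.6.0 and edgeR, with mm10. The deposited values are log2 RPKM per mouse, normalized by the authors within each genotype's table, with a prior count inferred to be 2 from the lowest listed values. The authors' deposited JTK q-value per gene was copied as given.

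Genes averaging at least 1 RPKM over all 96 libraries entered the fits (12144 of 22384). Of these, 429 were miRNA, snoRNA or snRNA genes at the lowest listed value in over 24 of the 48 libraries. Rhythms and their difference were tested with limma 3.58.1 in R 4.3.3 as F tests of cosine and sine terms of 24 h, with genotype by time terms over the 48 libraries, empirical Bayes with a trend, and Benjamini-Hochberg adjustment over all tested genes. Adjusted p below 0.05 was called, and p-values measure the spread between these mice. On simulated data with 200 changed genes, 89 of 100 changes of 1 log2 and 54 of 100 of 0.5 log2 were recovered, and 8 of 11944 unchanged genes were called. The simulated noise was independent for each gene, without deviations shared by the genes of a library, so these rates need not hold for the real libraries. Levels were compared after removal of the median log2 ratio. Depth was estimated from the value listed for 0 reads. No replicates were near-identical (smallest SD of log2 differences 0.250). Deviations from time-point means were correlated with 100000 two-sided permutations within time points, 8 relations planned and 10 added after seeing the data, with Python 3.11.15, scipy 1.17.1, numpy 2.4.6 and pandas 2.3.3. Promoters are RefSeq's for GRCm38.p6, and gene positions are from GENCODE's mouse annotation of GRCm38.

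Members and gene lists were chosen with earlier results of these data known. Named genes were the core clock genes; the 12 other genes with the smallest p for a rhythm larger in each genotype; the 12 largest level differences each way at 5 RPKM or more (fewer passed); up to 4 per list and those needed to state its result; and the 8 most firmly rhythmic in both. Predicted genes were passed over. Alternatives were rescaling, filters, time as separate levels, a second cosine, a replicate block, other offsets and fold limits, and leaving out replicates or libraries. The values of 1 core clock gene, counted among the 18, are not reported here.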

Additional observations from a re-analysis of the deposited data

Results flagged for a closer look

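Among 18 genes in 12 groups of 4 mice each (216 groups), 14 groups held a mouse whose gap to the nearest of the others exceeded Dixon's 95% critical value for the group's range. Chance alone flags about 1 group in 20. The flags fell on 7 EpiRE and 7 WT groups.

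In the clock, the EpiRE mouse numbered 4 at ZT8 had Dbp at 65.4 RPKM and the other 3 had 37.1 to 38.5. The EpiRE mouse numbered 2 at ZT0 had Cry1 at 11.9 and the others 7.75 to 8.29. In WT, mouse 3 at ZT12 had Nr1d1 at 79.5 (others 67.4 to 68.2), mouse 4 at ZT16 had Per2 at 13.3 (10.8 to 11.0), and mouse 3 at ZT16 had Cry1 at 19.5, with the others at 22.2.

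Among glucocorticoid-induced genes, the EpiRE mouse numbered 1 at ZT4 had Fkbp5 at 30.3 RPKM, with the others at 2.96 to 3.29, and Tsc22d3 at 34.9, with the others at 13.7 to 14.4. In WT, mouse 2 at ZT4 had Fkbp5 at 8.09 (4.69 to 5.10). For the cyclin gene Ccnd2, WT mouse 3 at ZT4 had 47.8 (84.9 to 92.5). For Sod2, WT mouse 2 at ZT16 had 16 where the others had 16.3, and EpiRE mouse 1 at ZT0 had 14.9 (12.7 to 12.9).

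The EpiRE mouse numbered 4 at ZT16 had both Lhx2 at 12.3 RPKM (others 3.17 to 3.2) and the melanocyte gene Dct at 5.14 (0.990 to 1.19). In WT, mouse 2 at ZT0 had Dct at 11.8 (1.98 to 2.46). Their cause was not tested.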

How the results depend on the processing

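The count of 1034 rhythm differences fell to 647 (607 larger in WT, 40 in EpiRE) after libraries were rescaled by medians of ratios, to 680 (612 larger in WT) at 5 RPKM or more, to 629 (570 and 59) with time as separate levels and to 672 (612 and 60) with a 12 h cosine added. Without a filter 49 were larger in EpiRE. Of the 1034, 545 remained after rescaling and 521 with time as separate levels. The EpiRE list of 349 became 180 without a filter and 119 with the 12 h cosine. Without all mice of a replicate number the differences ranged from 145 to 1376 (138 to 1277 larger in WT, 7 to 99 in EpiRE), the WT list from 2065 to 3663 and the EpiRE list from 6 to 378; without single libraries they ranged from 779 to 1421, 3709 to 4544 and 190 to 550. The cause of these shifts was not tested, beyond the fewer genes or mice that some settings hold.

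Same-numbered WT and EpiRE mice did not deviate together (24 pairs, r from -0.337 to 0.368, median 0.00875, 8 best with their own number), so no pairing by number showed in expression. Expression alone cannot tell whether same-numbered mice were collected or processed together. With the replicate block the EpiRE list was 206 and 962 genes differed.

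The 52 level differences became 87 (1 higher, 86 lower) with the offset of the lowest listed values, 338 (17 and 321) without a filter, 7 (2 and 5) at 5 RPKM or more, 19 (1 and 18) on log2(RPKM + 1) and 13 (1 and 12) at 2-fold. They ranged from 41 to 55 without replicate numbers (higher 7 to 8, lower 33 to 47) and from 43 to 63 without single libraries. The 9 named levels kept their sign, and 2 (Pyy and Lhx2) were counted at 2-fold, 5 on log2(RPKM + 1), 7 with the offset of the lowest listed values, 8 each after rescaling, without a filter and with medians over mice, and 4, 7, 5 and 6 without replicate number 1, 2, 3 and 4.

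The clock's spread ratio ranged from 1.36 to 1.69 without replicate numbers and was 1.28 without the ZT16 mouse. The median peak shift, -2.23 h over 237 genes, was -1.33 h over 136 genes with time as separate levels, and ranged from -3.48 h (4 genes) to -1.44 h (201 genes) without replicate numbers. In WT, Arntl with Nr1d1 gave r = -0.316 without the 2 farthest mice (permutation p = 0.22), -0.345 after rescaling (0.11) and 0.0608 with deviations from the cosine (0.98), which also took Arntl with Dbp to -0.0665 (0.93). Per3 with Dbp in WT gave 0.33 without the 2 farthest mice (0.17). Npas2 with Nr1d1 in EpiRE gave -0.282 without them and -0.298 without the ZT16 mouse (permutation p = 0.22 and 0.19).

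Of 39 named genes called for rhythm, 6, 9 and 11 kept their sign but lost the call without replicate number 1, 2 and 3, with Clock and Hlf among them. Further genes lost the call with the sign reversed. They were Vhl without number 1, Klhl23 and Mgat2 without 2, and Purb without 3. After rescaling 2 lost the call (Clock and Purb), and 1 did with time as separate levels (Purb). The sign of the swing difference (EpiRE minus WT, log2) reversed for Fbxl14 (-0.0297 to 0.0611 without replicate numbers), Klhl23 (-0.055 to 0.216), Mgat2 (-0.0229 to 0.121), Purb (-0.0101 to 0.0306), Sorl1 (-0.092 to 0.142) and Vhl (-0.0739 to 0.1). Genes near 1 RPKM rest on few reads, and changes there are the least precise.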
